A study of Mus musculus with 6 samples.

Results

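The genes described here move or bind metal ions in the mouse yolk sac at embryonic day 9.5. They are all rows of the count table that belong to the SLC30, SLC31, SLC39 and SLC41 carrier families, with the iron exporter Slc40a1 and the metallothioneins Mt1 and Mt2, and were picked by gene symbol alone. The rule found 32 genes of the 25239 in the table: 10 of SLC30, 14 of SLC39, 2 of SLC31, 3 of SLC41, Slc40a1 and 2 metallothioneins. The study sequenced messenger RNA from whole yolk sacs as single reads of 50 bases. Of the 6 libraries, 3 carry the label DKO and come from embryos of mixed background with the genotype Cdx1-/- Cdx2fl/fl Actin::CreERT, which were exposed to tamoxifen at embryonic day 5.5. Their Cre recombinase is driven by an actin promoter, so deletion of Cdx2 was not aimed at a particular cell type. The other 3 libraries come from wild-type (WT) embryos of the CD1 strain that received no treatment. Genotype, strain and tamoxifen cannot be told apart in this design, and whether a library held tissue of several embryos or litters is not given in the sources used here, so p-values measure the spread between these libraries, which may be technical.

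Metal ions cross membranes on dedicated carriers. SLC30 proteins (ZnT) move zinc out of the cytosol, into vesicles or out of the cell, and SLC39 proteins (ZIP) move it into the cytosol; some members of both families carry manganese or iron. SLC31A1 takes up copper, SLC41 proteins carry magnesium, and SLC40A1, ferroportin, exports iron. Metallothioneins are small cysteine-rich proteins that bind zinc and copper, and their genes are switched on by the zinc-sensing factor MTF1, which binds metal response elements in their promoters. In the mouse yolk sac the visceral endoderm faces the uterine side and takes up nutrients, metals among them, for the embryo.

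Because the metallothionein genes were among the members that varied most between libraries, the stretch ahead of their annotated starts is shown with that of Slc30a1, the zinc exporter gene known as another target of MTF1. Each run is the 250 bases before the RefSeq start in GRCm38.p6, 5′ to 3′ on the strand of the gene. Capitals mark every match to the core of the metal response element, spelled TGCACNC or TGCGCNC, on either strand.
Mt1 (chr8:94178839-94179088, plus strand): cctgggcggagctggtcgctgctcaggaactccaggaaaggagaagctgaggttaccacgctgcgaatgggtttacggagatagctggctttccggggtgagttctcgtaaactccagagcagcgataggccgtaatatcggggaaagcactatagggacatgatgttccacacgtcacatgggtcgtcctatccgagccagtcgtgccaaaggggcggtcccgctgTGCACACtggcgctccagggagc
Mt2 (chr8:94172368-94172617, plus strand): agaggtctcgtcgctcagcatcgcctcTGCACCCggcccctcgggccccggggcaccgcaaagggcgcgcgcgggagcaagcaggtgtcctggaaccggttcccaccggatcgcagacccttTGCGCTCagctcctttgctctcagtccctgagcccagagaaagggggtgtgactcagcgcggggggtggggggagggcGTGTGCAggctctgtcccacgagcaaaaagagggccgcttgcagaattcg
Slc30a1 (chr1:191906531-191906780, plus strand): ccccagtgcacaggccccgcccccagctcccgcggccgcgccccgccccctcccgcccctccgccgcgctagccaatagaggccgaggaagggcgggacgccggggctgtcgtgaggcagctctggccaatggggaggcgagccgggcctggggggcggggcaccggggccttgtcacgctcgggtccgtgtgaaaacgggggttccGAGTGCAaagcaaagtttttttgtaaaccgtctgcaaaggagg

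The Mt2 window held 3 matches, which began 223, 128 and 50 bases before the start, the last of them on the opposite strand. The Mt1 and Slc30a1 windows held 1 match each, at 23 and 43 bases before the start, that of Slc30a1 on the opposite strand. For Mt1 the window depends on which start is taken. GENCODE M21 gives Mt1 transcripts that begin at 94179082, 94179211 and 94179241 on chromosome 8, and the 159 bases between the first and the last of these, most of which the window above does not cover, held 4 further matches. For Mt2 GENCODE M21 gives starts at 94172664 and 94172860, downstream of the RefSeq start, so its distances too are from the RefSeq start only. RefSeq windows were found for 27 of the 32 members, 32 windows in all. Of these windows 17 (53.1%) held at least 1 match, as did 21.4% of all 32851 windows in the table. Member windows had a median GC content of 61% and all windows 52.4%. Among the 8272 windows with a GC content of at least 61%, 40.4% held a match. That set was not matched in GC content to the member windows, of which 61% is only the median. Windows with 3 or more matches made up 1.26% of all, and among the members these were Mt2 and the manganese exporter gene Slc30a10. Overlapping matches were counted separately, 2 of the 3 in Slc30a10 overlap, and a match is not evidence that the factor binds there.

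Libraries 1 to 3 labelled DKO held 24242663, 39014098 and 56732836 counts and the WT libraries 20040601 to 26855337. The members took 0.231% to 0.402% of counts in the libraries labelled DKO and 0.256% to 0.268% in the WT libraries. The level of a gene is expressed in CPM, its count per library brought to a total of 1000000, with TMM factors between libraries. The targeted gene Cdx2 was not lower, at 23.0, 24.1 and 25.7 CPM in libraries 1 to 3 labelled DKO, against 16.6, 18.9 and 20.3 CPM in WT libraries. Cdx1 had 10, 14 and 14 counts in libraries labelled DKO, against 0, 1 and 8 in WT, so the directions below rest on the labels. Counts span the whole gene, so transcript outside a deleted exon would still be counted and the deletion could not be checked. The 10 visceral endoderm and 10 primitive erythroid markers listed were all above 1 CPM in every library. Summed visceral endoderm markers (Afp, Apob and others) stood at 19727, 38119 and 59891 CPM in libraries 1 to 3 labelled DKO, against 30276 to 36184 CPM in WT. Summed primitive erythroid markers, mostly embryonic globins, stood at 2777 to 10336 CPM in libraries labelled DKO, lowest in library 3, against 8778 to 13653 CPM in WT. Trophoblast markers summed to 325, 169 and 451 CPM, and decidua markers to 28.4, 49.8 and 94.0 CPM, in libraries labelled DKO, against 134 to 179 and 27.1 to 33.0 CPM in WT. Hand1, which is also a mesoderm marker, gave most of the trophoblast sum outside library 3 labelled DKO. In that library Prl2c2 stood at 235 CPM and Prl3d1 at 55.6 CPM, against at most 8.64 and 4.81 CPM in WT. Rhox6, Rhox9 and Hsd3b6 lay above every WT library in all libraries labelled DKO (7.93% of all genes), whereas Gcm1 overlapped. Rhox6 stood at 35.5, 32.9 and 60.5 CPM, against at most 21.8 CPM in WT. Ascl2 stood at 11.0 CPM in library 1 labelled DKO and at most 0.971 CPM in every other library. Of the decidua sum, Dcn, which is also a mesoderm marker, gave 36.9 CPM in library 2 and 45.1 CPM in library 3 labelled DKO. Prl8a2 stood at 2.84, 0.257 and 33.7 CPM in libraries 1 to 3 labelled DKO, against at most 0.923 CPM in WT. Hoxa10, Hoxa11 and Pgr were highest in library 3 labelled DKO, at 1.28, 0.832 and 0.705 CPM. In every other library they stood at no more than 0.34, 0.437 and 0.146 CPM. Cryab was lower than WT in all libraries labelled DKO. The part of these cell types in the values of the libraries labelled DKO was not tested. In bulk tissue, fewer cells of a type cannot be told apart from less RNA per cell.

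No member differed between the groups past the threshold of an adjusted p of 0.05. Of the 32 members, 29 passed the filter on low counts, and edgeR's quasi-likelihood test called 0 of them, against 0.0357% of the 14002 genes tested. At an unadjusted p under 0.05 it counted 0 of the 29, against 9.09% of all genes. DESeq2 called 0 of the 29 (2.06% of all genes), whereas limma-voom with library quality weights called 10 (34.5%), a fit in which 19% of all genes were called. Those 10 were Mt1, Mt2, Slc30a6, Slc31a1, Slc39a5 and Slc39a13 on the higher side and Slc39a8, Slc39a10, Slc39a11 and Slc41a1 on the lower side. Of the 29 members 16 had a positive and 13 a negative log2 fold change, DKO minus WT, with a median of 0.08, and the median of all genes was 0.01. In 2 members every library labelled DKO lay above every WT library (7.93% of all genes) and in 4 below (7.61%), together 20.7% of members and 15.5% of all genes. The libraries labelled DKO differed among themselves more than the WT libraries did, in 25 of the 29 members and in 11224 of the 14002 genes. The median log2 range was 0.64 over the 3 libraries labelled DKO and 0.21 over the 3 WT libraries, against 0.52 and 0.23 for all genes.

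**Figure D1:**
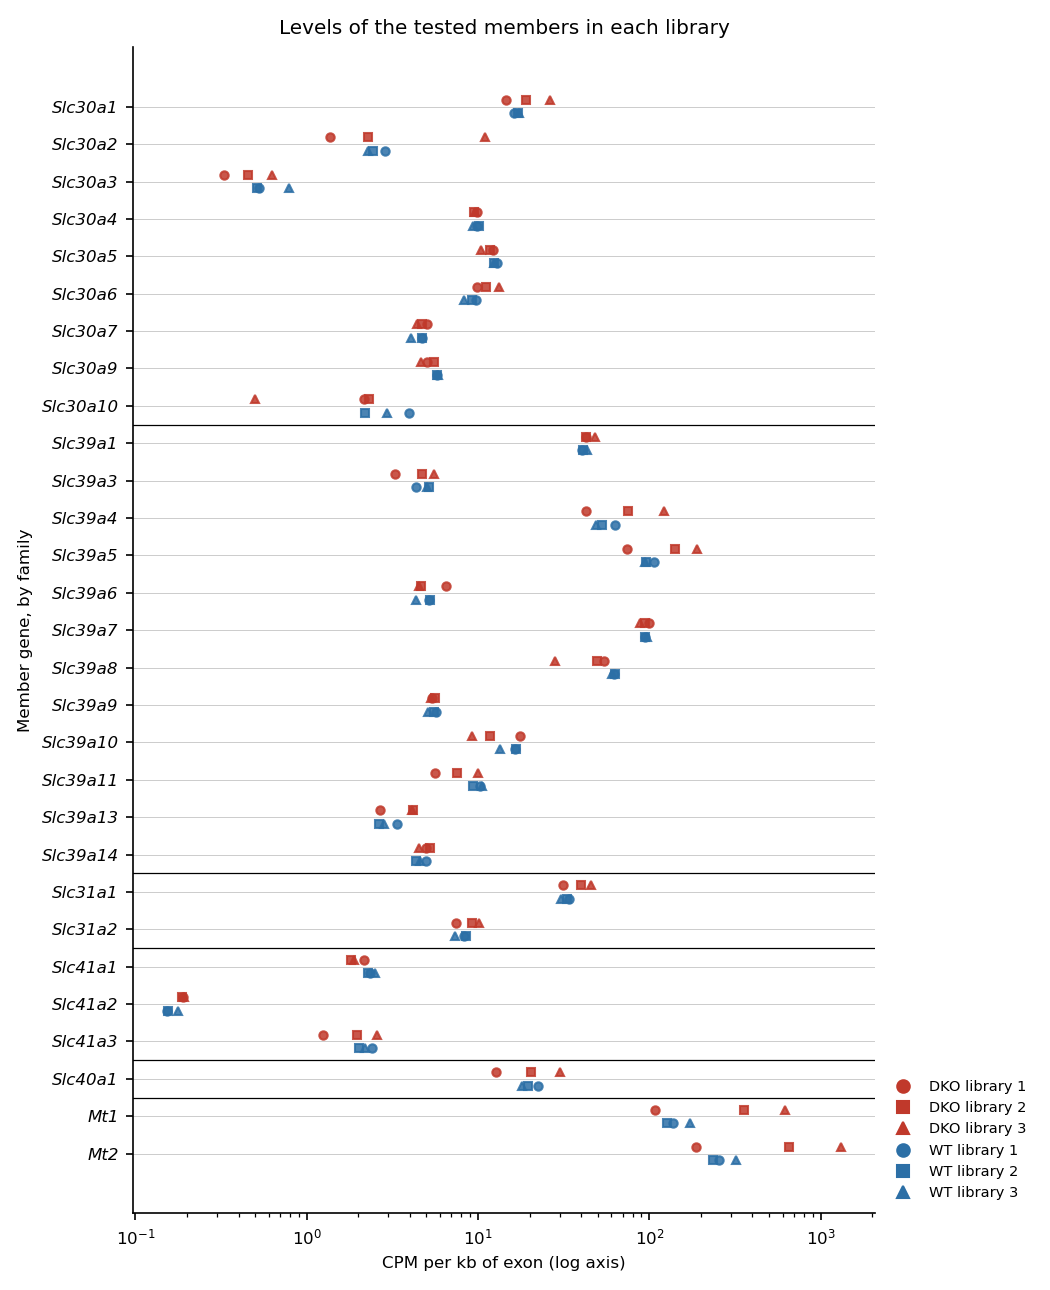
Level of each of the 29 tested members, as CPM per kb of exon on a log axis, in the 3 libraries labelled DKO (red, upper row of each gene) and the 3 WT libraries (blue, lower row); marker shape gives the library number. Mt2 and Mt1 lie highest, and the red points spread more widely than the blue for Mt1, Mt2, Slc30a2, Slc30a10 and Slc39a4.

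Mt2 and Mt1 had the highest levels per length of all members. The libraries labelled DKO averaged 719 ± 571 CPM per kb of exon for Mt2 and 361 ± 256 CPM per kb for Mt1, and the WT libraries 269.9 ± 45.0 and 146 ± 24.4 CPM per kb (SD, n = 3 each). Behind them in WT came Slc39a5 at 98.9 ± 6.57, Slc39a7 at 95.3 ± 1.76, Slc39a8 at 62.0 ± 1.37, Slc39a4 at 55.3 ± 7.38 and Slc39a1 at 41.6 ± 1.37 CPM per kb (SD, n = 3 each). The values of Slc39a5 and Slc39a7 overlapped within their spread, as did those of Slc39a8 and Slc39a4. The copper importer Slc31a1 followed at 32.6 ± 1.71, ferroportin Slc40a1 at 20.1 ± 2.21 and Slc30a1, first of the SLC30 family, at 16.8 ± 0.631 CPM per kb (SD, n = 3 each). Taken per kb of the longest transcript instead, Slc39a8 (113) ranked above Slc39a5 (109) and Slc39a7 (101). On that measure Slc40a1 (45.9) ranked above Slc39a1 (41.6) and Slc31a1 (33.6). Slc30a5 (23.0) ranked above Slc30a1 (16.8), so Slc30a1 was then not first of its family. The order of the genes behind Mt2 and Mt1 thus depends on the exon model.

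Both metallothioneins were high in 2 of the 3 libraries labelled DKO and low in the remaining library. Mt1, on chromosome 8 from 94179082 to 94180327, stood at 135, 443 and 772 CPM in libraries 1 to 3 labelled DKO, against 170, 159 and 217 CPM in WT libraries 1, 2 and 3. Mt2, whose end at 94173568 lies 5514 bases before the start of Mt1, stood at 109.8, 382 and 777 CPM in libraries labelled DKO, against 149, 138 and 189 CPM in WT. For both genes library 1 labelled DKO lay below all WT libraries and libraries 2 and 3 above all of them, so the groups overlapped. The log2 fold change was 1.31 (SE 0.56, edgeR adjusted p 0.56) for Mt1 and 1.42 (SE 0.62, adjusted p 0.569) for Mt2. As a share of all counts the pair took 0.0249%, 0.0822% and 0.151% in libraries 1 to 3 labelled DKO, against 0.0298% to 0.0407% in WT.

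The 2 metallothionein genes varied together. Counts of Mt1 over counts of Mt2 gave 1.23, 1.16 and 0.994 in libraries 1 to 3 labelled DKO, against 1.14, 1.15 and 1.15 in WT libraries. The ratio was thus nearly constant among WT libraries and lowest in the library where both genes were highest. Without library 1 labelled DKO, both passed the threshold, with log2 fold changes of 1.74 (edgeR adjusted p 0.0365) for Mt1 and 1.87 (adjusted p 0.042) for Mt2. In that fit 3 members were called, all higher (10.3% of the 29), the other being Slc39a5, against 3.02% of 14335 genes called higher. Without library 3 the log2 fold changes were 0.67 and 0.63. No 50-base window of Mt1 transcripts recurred in a transcript of another gene. Of the Mt2 windows 45.9% lie opposite the antisense gene Gm45774, and since the strand setting of the counts is not given, reads of that gene could not be told from reads of Mt2.

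**Figure D2:**
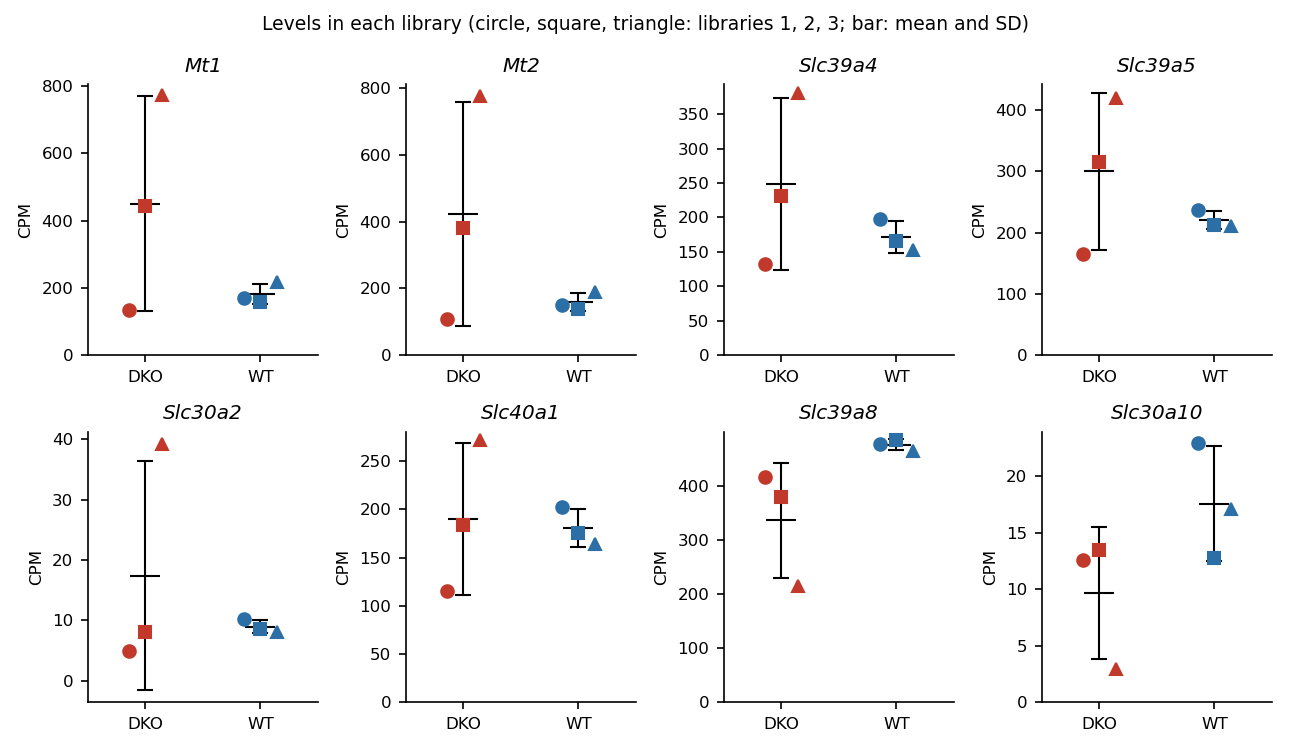
CPM in each library for 8 members, with the libraries labelled DKO left of WT; circles, squares and triangles are libraries 1, 2 and 3, and bars give mean and SD (n = 3). In Mt1, Mt2, Slc39a4, Slc39a5, Slc30a2 and Slc40a1 library 1 labelled DKO lies lowest of all 6 and library 3 highest, and in Slc39a8 and Slc30a10 library 3 labelled DKO lies lowest.

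Among the SLC39 zinc importers, the gut-type genes Slc39a4 and Slc39a5 followed the same library order as the metallothioneins. Among the libraries labelled DKO this order, library 1 lowest and library 3 highest, held for 33.9% of all tested genes. Slc39a4, the zinc importer of the gut lining that is mutated in human acrodermatitis enteropathica, stood at 132, 232 and 380.2 CPM in libraries 1 to 3 labelled DKO, against 197, 166 and 153 CPM in WT. Slc39a5, a zinc carrier of the basolateral side of gut and pancreas cells, stood at 165, 315 and 420.3 CPM in libraries labelled DKO, against 237, 212 and 211 CPM in WT. In both genes library 1 labelled DKO lay below every WT library and libraries 2 and 3 above. The log2 fold change of Slc39a4 was 0.53 (SE 0.36, edgeR adjusted p 0.673) and that of Slc39a5 was 0.45 (SE 0.31, adjusted p 0.68). Without library 1 labelled DKO they were 0.83 (adjusted p 0.0675) and 0.74 (adjusted p 0.0447), and without library 3 they were 0.08 and 0.12. Summed visceral endoderm markers had the same order over the libraries labelled DKO, with library 1 below and libraries 2 and 3 above the WT range, and Afp gave 31199 of the 59891 CPM in library 3. Apob and Cubn of that list did not follow the order, and Apob stood at 5610, 7738 and 6908 CPM in libraries 1 to 3 labelled DKO, against 7026 to 9436 CPM in WT. The part of this cell type in these values was not tested.

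Slc39a8, a plasma membrane importer of zinc and manganese and the SLC39 gene with most counts in WT, was lower in all libraries labelled DKO. It stood at 415, 378 and 215 CPM in libraries 1 to 3 labelled DKO, against 478, 485 and 464 CPM in WT. The groups did not overlap, and the WT libraries differed little from each other, but the log2 fold change of -0.50 (SE 0.24) had an adjusted p of 0.591 by edgeR. It was -0.27 without library 3 labelled DKO and -0.68 without library 1. Summed primitive erythroid and endothelium markers were also lowest in library 3 labelled DKO, which held the lowest value for 4667 of the 14002 genes. Not every gene of these lists followed the sums. Hbb-y was lowest in library 1 labelled DKO, and Pecam1, Cldn5 and Esam were highest in library 3. The part of these cell types in the value of Slc39a8 was not tested. Slc39a7, which releases zinc from the endoplasmic reticulum, hardly varied, at 256, 244 and 229 CPM in libraries labelled DKO, against 243, 244 and 251 CPM in WT (log2 fold change -0.02, SE 0.08). Of its 50-base windows 74.5% also occur in Gm20427, a transcript on the same strand that overlaps it and that the count table does not list as a separate gene.

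The other 8 tested SLC39 genes had log2 fold changes between -0.38 and 0.32, with adjusted p of at least 0.624 by edgeR. Those with positive values were Slc39a1, Slc39a6, Slc39a13 and Slc39a14, and those with negative values were Slc39a3, Slc39a9, Slc39a10 and Slc39a11. Slc39a10, a plasma membrane zinc importer, ran the other way from Slc39a4, with 107, 72.0 and 56.4 CPM in libraries 1 to 3 labelled DKO, against 101, 102 and 82.4 CPM in WT. The Golgi carrier gene Slc39a9 had the smallest range of the family within the libraries labelled DKO, between 53.8 and 56.8 CPM in libraries labelled DKO and between 51.7 and 58.0 CPM in WT. Slc39a10 and Slc39a9 were named here after their values were seen. Slc39a2 and Slc39a12 did not pass the filter, with 3 to 27 and 0 to 6 counts per library labelled DKO, against 1 to 5 and 0 to 3 counts per WT library. Over the 12 tested genes the family median was 0.04, with 6 positive and 6 negative values, and the summed level was 1502 ± 132 CPM in libraries labelled DKO and 1499 ± 50.4 CPM in WT (SD, n = 3 each). Of the 50-base windows of Slc39a1 21.8% recur in its pseudogene Slc39a1-ps, so its value is uncertain.

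**Figure D3:**
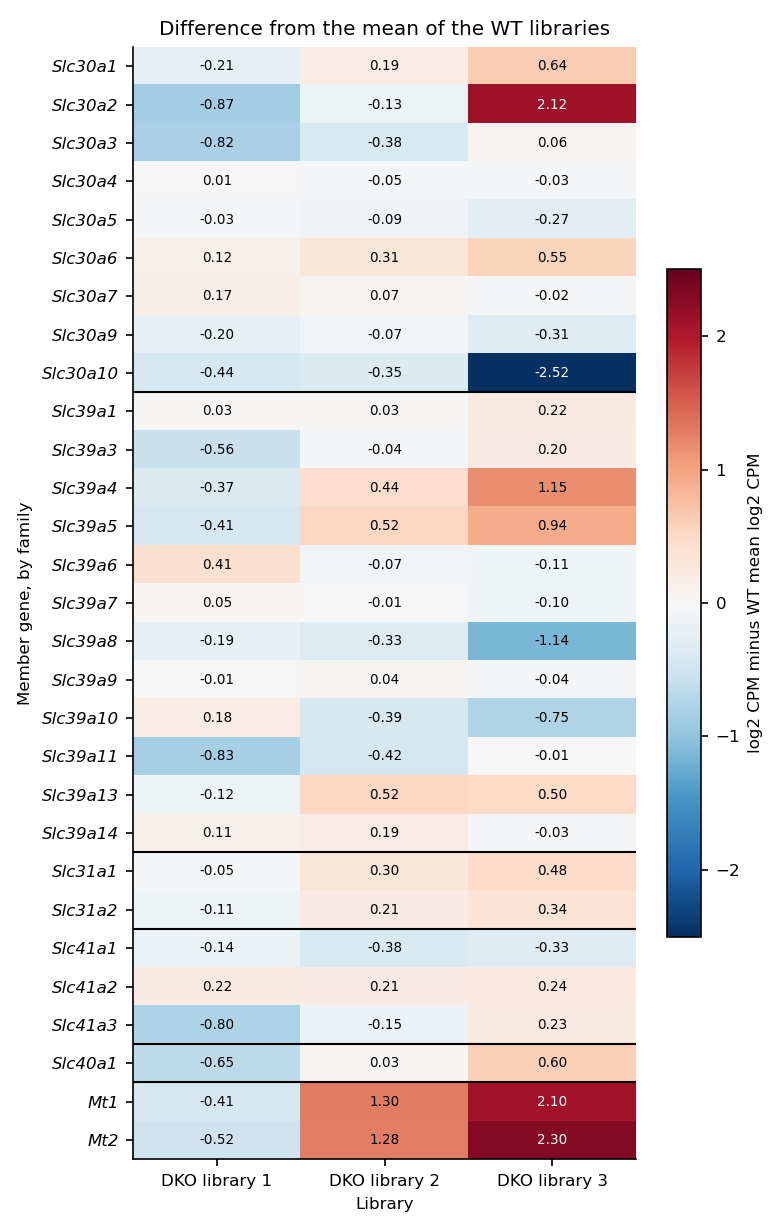
Difference of each library labelled DKO from the mean of the 3 WT libraries, in log2 CPM with a prior count of 2, for the 29 tested members grouped by family; red is higher and blue lower than the WT mean. Mt1 and Mt2 stand at -0.41 and -0.52 in library 1 but at 2.10 and 2.30 in library 3, and Slc30a10 at -2.52 in library 3.

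In the SLC30 family the widest spread was in the vesicular zinc transporter Slc30a2, which loads zinc into secretory vesicles and whose loss in women gives zinc-poor milk. It stood at 4.86, 8.15 and 39.2 CPM in libraries 1 to 3 labelled DKO, against 10.2, 8.64 and 8.09 CPM in WT. Library 3 labelled DKO alone was high, library 2 lay within the WT range and library 1 below it. The log2 fold change of 0.96 (SE 0.74, edgeR adjusted p 0.694) was -0.46 without library 3. Its log2 range over the libraries labelled DKO was matched or exceeded in 2.29% of all genes tested, and those of Mt2 and Mt1 in 2.79% and 3.99%.

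Slc30a10, which exports manganese, was low in the same library. It stood at 12.6, 13.5 and 2.93 CPM in libraries 1 to 3 labelled DKO, against 22.9, 12.8 and 17.1 CPM in WT, and the groups overlapped. The log2 fold change was -0.87 (SE 0.55, edgeR adjusted p 0.653), and -0.44 without library 3. Of its 50-base windows 8.36% lie opposite Gm2061, a non-coding gene that the table lists separately. Slc30a1, the zinc exporter of the plasma membrane whose promoter is printed above, stood at 76.3, 101 and 138 CPM in libraries 1 to 3 labelled DKO, against 84.5, 90.1 and 90.4 CPM in WT. It thus lay in the same order as the metallothioneins, with a smaller range. Library 1 lowest and library 3 highest among those labelled DKO also held for 33.9% of all tested genes. The log2 fold change of Slc30a1, 0.25 (SE 0.21, edgeR adjusted p 0.713), was -0.0016 without library 3. Of the Slc30a1 windows 8.01% lie opposite the antisense gene 1700034H15Rik.

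For 3 of the 9 tested SLC30 genes the groups did not overlap, against 15.5% of all genes. Slc30a6, a partner of SLC30A5 in the early secretory pathway, stood at 30.2, 34.3 and 40.7 CPM in libraries labelled DKO, against 29.8, 28.2 and 25.4 CPM in WT (log2 fold change 0.33, SE 0.14, edgeR adjusted p 0.551). Its partner gene Slc30a5 stood at 89.7, 86.3 and 76.0 CPM in libraries labelled DKO, against 94.6, 90.5 and 90.6 CPM in WT (log2 fold change -0.13, SE 0.09, adjusted p 0.685). The 2 partner genes therefore lay on opposite sides of WT, each by less than the threshold requires. Slc30a9, a carrier of mitochondrial zinc, stood at 62.5, 68.2 and 57.7 CPM in libraries labelled DKO, against 71.5, 71.2 and 72.7 CPM in WT (log2 fold change -0.19, SE 0.10, adjusted p 0.603). The endosomal Slc30a4, Golgi-associated Slc30a7 and synaptic vesicle gene Slc30a3 had log2 fold changes of -0.02, 0.07 and -0.36. Of the 50-base windows of Slc30a7 15.3% recur in transcripts of other genes, mainly 2 processed pseudogenes within it. Slc30a8, the zinc carrier of insulin granules, had 0 counts in all 6 libraries, where 3 counts would be 0.0543 to 0.122 CPM in libraries labelled DKO and 0.111 to 0.149 CPM in WT. The family median over its 9 tested genes was -0.02, and the summed level was 421 ± 35.4 CPM in libraries labelled DKO and 412 ± 9.5 CPM in WT (SD, n = 3 each).

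Copper uptake genes overlapped between the groups. Slc31a1, the high-affinity copper importer, stood at 135, 171 and 195 CPM in libraries 1 to 3 labelled DKO, against 145, 142 and 131 CPM in WT. Slc31a2, an endosomal relative, lies 62316 bases away on chromosome 4 and stood at 15.1, 18.8 and 20.6 CPM in libraries labelled DKO, against 16.9, 17.2 and 14.8 CPM in WT. Both were above the WT range in libraries 2 and 3 labelled DKO and within it in library 1. Their log2 fold changes were 0.26 (SE 0.15, edgeR adjusted p 0.628) and 0.15 (SE 0.16, adjusted p 0.751). Without library 3 labelled DKO they were 0.13 and 0.05.

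Ferroportin Slc40a1, which passes iron from the yolk sac endoderm towards the embryo, differed more among the libraries labelled DKO than between the groups. It stood at 115, 183 and 272 CPM in libraries 1 to 3 labelled DKO, against 202, 176 and 163 CPM in WT. Library 1 labelled DKO lay below the WT range, library 2 within it and library 3 above it. The log2 fold change was 0.08 (SE 0.30, edgeR adjusted p 0.932), and it turned to -0.28 without library 3.

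The magnesium carriers of the SLC41 family were the least abundant of the tested families. Slc41a1, a plasma membrane magnesium carrier, stood at 10.6, 8.93 and 9.29 CPM in libraries labelled DKO, against 11.5, 11.2 and 12.3 CPM in WT. Slc41a2 stood at 1.003 to 1.03 CPM in libraries labelled DKO, from 25, 39 and 57 counts, against 0.817, 0.826 and 0.943 CPM in WT, from 22, 17 and 19 counts. Neither gene overlapped between the groups, with Slc41a1 lower (log2 fold change -0.28, SE 0.14, edgeR adjusted p 0.603) and Slc41a2 higher in libraries labelled DKO (0.24, SE 0.26, adjusted p 0.766). Across all genes tested, the groups did not overlap in 15.5%. Slc41a3, a mitochondrial magnesium carrier, stood at 3.65, 5.74 and 7.52 CPM in libraries labelled DKO, against 6.98, 5.88 and 6.35 CPM in WT, and its log2 fold change of -0.18 was 0.05 without library 1 labelled DKO.

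**Figure D4:**
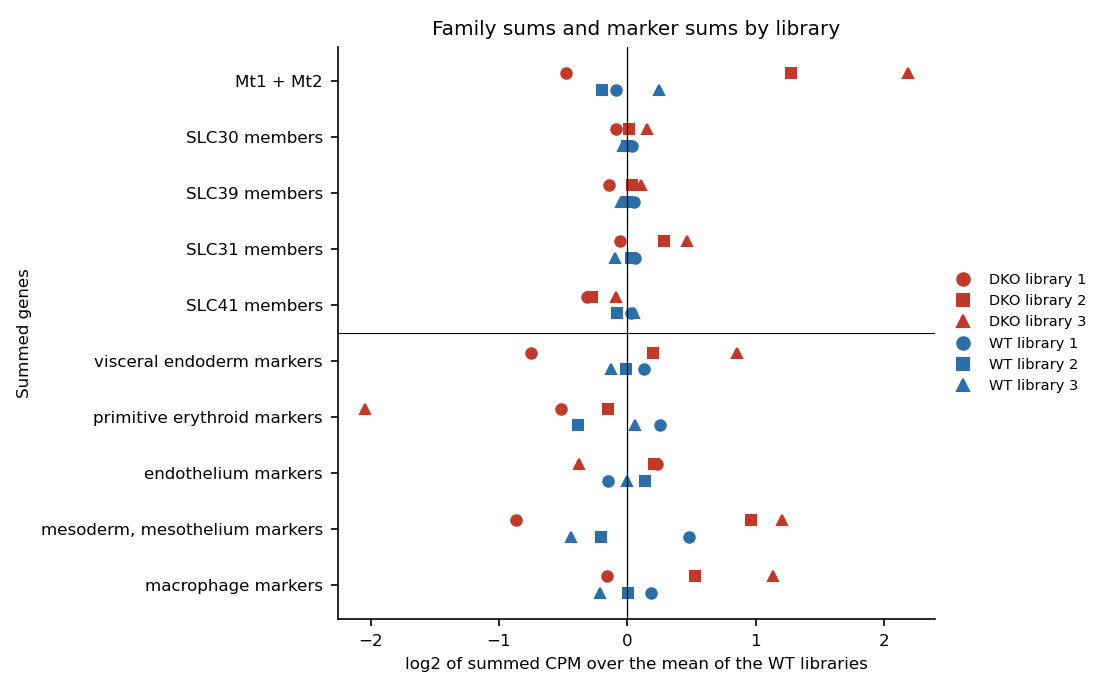
Summed CPM of each family and of 5 lists of cell type markers in each library, as the log2 ratio to the mean of the 3 WT libraries; libraries labelled DKO are red and above, WT libraries blue and below. The metallothionein sum in libraries 1 to 3 labelled DKO stands at -0.48, 1.28 and 2.19, and that of visceral endoderm markers at -0.75, 0.20 and 0.85.

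The order with library 1 lowest and library 3 highest among those labelled DKO held for 15 of the 29 tested members (51.7%) and for 33.9% of all tested genes. The opposite order held for 6 members (20.7%) and for 32.4% of all genes. Total counts rose from library 1 to library 3 among those labelled DKO, and the part of depth in these orders was not tested. Marker sums also differed among the libraries labelled DKO. Visceral endoderm markers stood in library 1 labelled DKO at -0.75, in library 2 at 0.20 and in library 3 at 0.85 relative to the WT mean on the log2 scale, while the median over the 10 markers stood at -0.54, 0.24 and 0.47. Mesoderm and mesothelium markers stood at -0.86, 0.96 and 1.21, a sum made mostly of fibrillar collagens, while Hand1 of that list stood at 0.97, -0.09 and -1.02 and Foxf1 at 0.39, 0.10 and -1.08. Endothelium markers stood at 0.23, 0.21 and -0.37, and primitive erythroid markers at -0.52, -0.15 and -2.05, in libraries 1 to 3 labelled DKO. Of the endothelium list, Pecam1, Cldn5 and Esam stood at 0.70, 0.95 and 0.45 in library 3 labelled DKO. Cdh5, Kdr, Tek, Emcn and Tie1 lay below the WT mean there. Macrophage markers stood at -0.15, 0.53 and 1.13. Mrc1 gave most of their sum outside library 3 labelled DKO, where Csf1r stood at 67.0 CPM, against 2.28 to 4.90 CPM in WT, and C1qa at 1.54 CPM, against at most 0.186 CPM in WT. The part of these cell types in the members' values was not tested. On the same scale the SLC30 and SLC39 sums lay between -0.14 and 0.15 in the libraries labelled DKO.

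Other genes of metal handling were read from a list of 53 symbols, of which 52 are in the table and 42 passed the filter. None of the 42 was called by edgeR, and DESeq2 called 2, both lower, beside 2.06% of all genes. Of the 42, limma-voom called 4 higher (Ccs, Cox19, Ftl1 and Alpl) and 4 lower (Tusc3, Nipa1, Nipa2 and Mmgt1), a share that equals the 19% of all genes it called. By edgeR at an unadjusted p under 0.05, 2 were higher (5.55% of all genes) and 5 lower (3.54%), and 5 of these 7 belong to the 12 tested genes of magnesium transport outside SLC41. Tusc3, a subunit of the oligosaccharyltransferase that is also described as a magnesium transporter, stood at 29.3, 30.5 and 27.6 CPM in libraries labelled DKO, against 43.3, 45.0 and 42.0 CPM in WT. Here the libraries labelled DKO were alike and all lay below WT. The log2 fold change was -0.58 (SE 0.09, edgeR adjusted p 0.152, DESeq2 adjusted p 1.6e-05), and between -0.62 and -0.54 with each library left out in turn. It passed the threshold of edgeR without library 1 labelled DKO (adjusted p 0.0406).

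Its paralog Magt1 stood at 98.4, 113 and 113 CPM in libraries labelled DKO, against 127, 175 and 135 CPM in WT (log2 fold change -0.43, SE 0.14, edgeR adjusted p 0.477, and -0.28 without WT library 2). Nipa2, a plasma membrane magnesium transporter, stood at 55.7, 55.7 and 56.0 CPM in libraries labelled DKO, against 71.6, 70.4 and 65.5 CPM in WT (log2 fold change -0.31, SE 0.08, edgeR adjusted p 0.372, DESeq2 adjusted p 0.0324). Its relative Nipa1 stood at 5.35, 4.76 and 3.67 CPM in libraries labelled DKO, against 7.35, 6.12 and 7.64 CPM in WT (log2 fold change -0.62, SE 0.21, edgeR adjusted p 0.485). In all 4 of these genes the groups did not overlap, as in 15.5% of all genes, but the 4 were named for an unadjusted p under 0.05 by edgeR. Mmgt2, a membrane magnesium transporter of the secretory pathway, was the magnesium gene on the other side, at 8.55, 8.93 and 12.2 CPM in libraries labelled DKO, against 7.50, 6.60 and 7.25 CPM in WT (log2 fold change 0.48, SE 0.19, edgeR adjusted p 0.539, and 0.29 without library 3 labelled DKO). The channel kinase gene Trpm7 and 6 other tested magnesium genes had unadjusted p above 0.05.

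**Figure D5:**
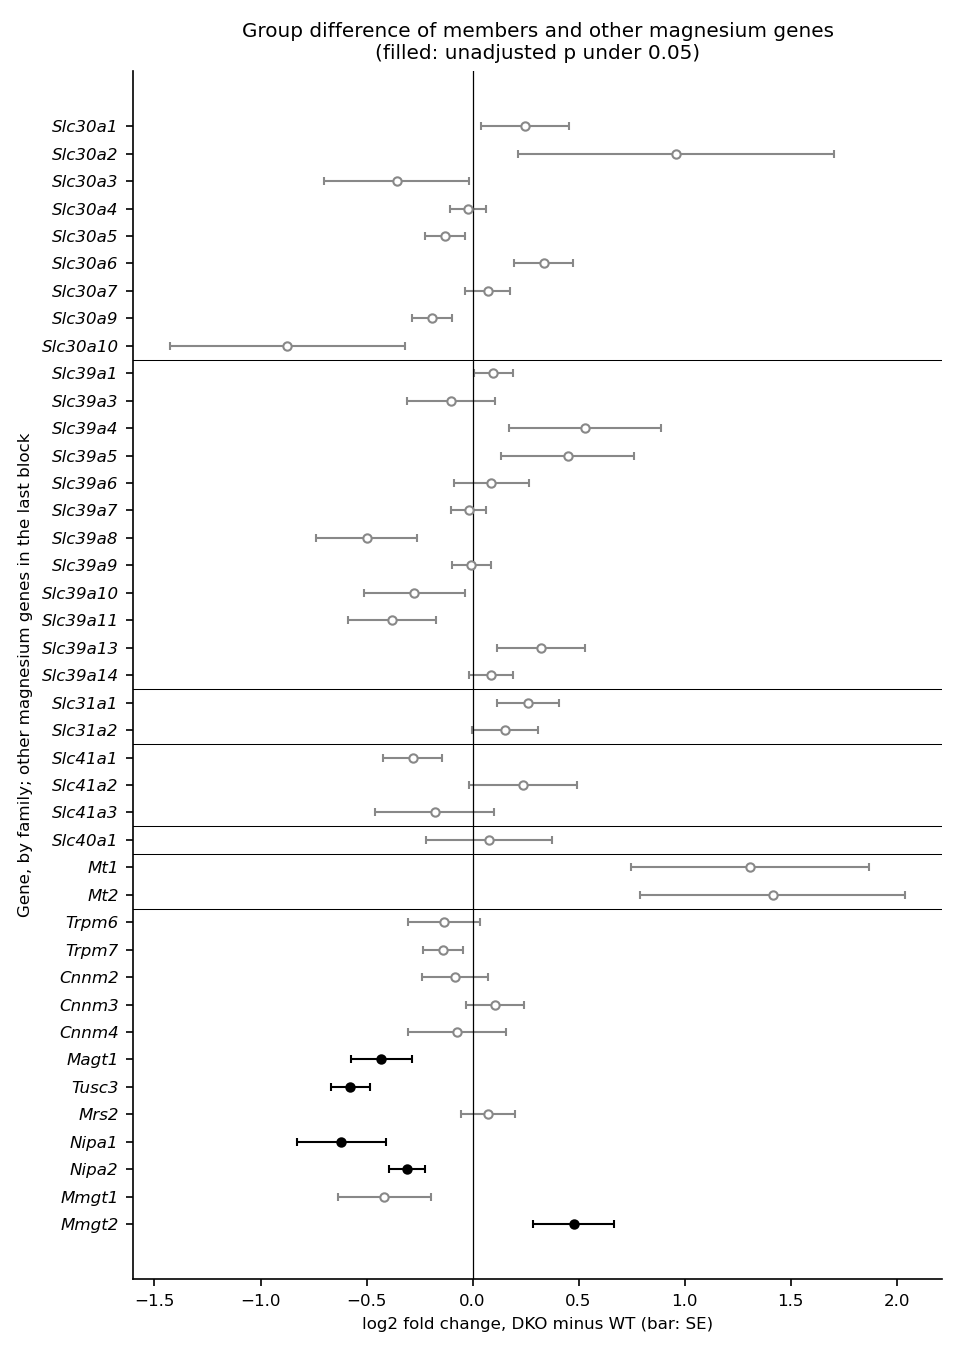
Log2 fold change, DKO minus WT, with its SE for the 29 tested members by family and, in the last block, 12 other magnesium genes; filled points have an unadjusted p under 0.05. All member points are open, and the filled points are Magt1, Tusc3, Nipa1 and Nipa2 on the lower side and Mmgt2 on the higher side.

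Of the zinc sensing, copper and iron genes outside the carrier families, no tested gene differed past the threshold of edgeR. The zinc sensing list had 1 tested gene, Mtf1, as the metallothionein genes Mt3 and Mt4 did not pass the filter. Mt3 had 11, 11 and 14 counts in libraries 1 to 3 labelled DKO, against 4, 2 and 3 in WT. Mt4 had at most 2 counts in any library. Mtf1, the gene of the zinc-sensing factor, stood at 30.2, 27.1 and 26.2 CPM in libraries 1 to 3 labelled DKO, against 29.4, 27.3 and 27.7 CPM in WT (log2 fold change -0.02, SE 0.10). Its transcript level was thus even across the libraries in which Mt1 and Mt2 varied. Counts of Mtf1 do not measure the activity of the factor, and its part in these values was not tested. The copper pump gene Atp7a stood at 51.8, 116 and 188 CPM in libraries labelled DKO, against 119, 97.3 and 78.9 CPM in WT, and Atp7b at 150.2, 270 and 318 CPM, against 229, 191 and 187 CPM in WT. Both pumps lay in the order of Slc40a1, below WT in library 1 labelled DKO and above it in library 3. Of all tested genes, 33.9% were lowest in library 1 and highest in library 3 among those labelled DKO. Ceruloplasmin Cp, a copper-binding ferroxidase, was below the filter and had 13.2 CPM in library 3 labelled DKO and at most 0.298 CPM in each of the other 5 libraries. Mtf1, Mt3, Mt4, Atp7a, Atp7b and Cp were named after their values were seen.

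Of the 17 tested genes of other iron and manganese handling, 1 was higher and 1 lower at an unadjusted p under 0.05, which is 11.8% of them and near the 9.09% of all genes. Tfr2, a transferrin receptor, stood at 1.22, 2.62 and 1.32 CPM in libraries labelled DKO, against 4.01, 2.87 and 2.88 CPM in WT (log2 fold change -0.92, SE 0.37, edgeR adjusted p 0.543). Steap4, a metalloreductase, stood at 0.527, 0.412 and 1.07 CPM in libraries labelled DKO, against 0.223, 0.194 and 0 CPM in WT, with 0 to 6 counts per WT library (edgeR adjusted p 0.505). Steap4 was thus near the lower limit of counting. The ferritin light chain Ftl1 stood at 2320, 3169 and 3996 CPM in libraries 1 to 3 labelled DKO, against 2522, 2295 and 2571 CPM in WT, while the heavy chain Fth1 ran the other way at 1469, 1099 and 755 CPM, against 1129, 1170 and 1428 CPM in WT. The groups overlapped in both ferritin genes. Slc25a3, Pcbp1, Pcbp2 and Ncoa4, the other abundant genes of these lists, had log2 fold changes between -0.15 and 0.08. Among them Ncoa4, the receptor for breakdown of ferritin, did not overlap between the groups, at 331 to 335 CPM in libraries labelled DKO, against 357 to 393 CPM in WT (log2 fold change -0.15, SE 0.08, edgeR adjusted p 0.624).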

How the data were processed

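Raw counts of reads, summed by gene symbol in 6 libraries, were deposited by the authors and entered every test unchanged. The submitters' processing notes name mm10, SAMtools and DESeq2 without versions or roles, and the file headers point to subset BAM files. The aligner, counter, annotation and strandedness were not given in the sources used here. Of the 25239 rows 0 lacked a gene name.

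Groups were compared over all genes with edgeR 4.0.16 (R 4.3.3): TMM scaling, filterByExpr, robust quasi-likelihood F test, group as the only term, and Benjamini-Hochberg adjustment over the 14002 genes kept. The SE was taken as the size of the log2 fold change divided by sqrt(F). Alternatives used DESeq2 1.42.0, limma 3.58.1 (voom with quality weights), other scaling and filters, a replicate block, globin genes left out, and each library left out. Exon lengths, coordinates and exact 50-base windows came from GENCODE M21 (GRCm38, the assembly of mm10), and promoters from RefSeq GRCm38.p6.

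The members and lists were chosen with earlier results of these data known. Values in every library are given for the 3 most abundant SLC30 and SLC39 genes, all SLC31 and SLC41 genes, Slc40a1, Mt1, Mt2, members with an unadjusted p under 0.05, a call by edgeR or DESeq2 or groups that do not overlap, and the 5 with the largest log2 range in libraries labelled DKO; of other genes, those under 0.05 and the 6 most abundant are named. For this comparison the test was also tested on simulated data, 14002 genes with 200 changed: 43% of the 2-fold and 81% of the 4-fold changes were called, with 8 of 132 calls false, and 0 genes were called where nothing was changed. The simulation gave both groups the same spread and drew each gene independently. In the data the median log2 range was 0.52 over libraries labelled DKO and 0.23 over WT libraries, so these rates may not carry over.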

Additional observations from a re-analysis of the deposited data

How the results depend on the processing

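With all libraries edgeR called 5 genes and 0 members. No filter on low counts gave 8 genes, DESeq2 288, limma-voom with quality weights 2661 and the replicate block 1. Members called were 10 with limma-voom and 0 in each of the other settings with all libraries. With each library left out in turn, edgeR called 0 (630 at an unadjusted p under 0.05) to 634 genes and 0 to 3 members, the highest counts in both cases without library 1 labelled DKO. The other scalings, the stricter filter, the fit without robust shrinkage and the fit without globin genes kept the count of genes within 1.5 times. Left-out ranges of the family medians were -0.067 to 0.00044 for SLC30 (-0.02 with all libraries), -0.0038 to 0.053 for SLC39 (0.04) and -0.27 to 0.047 for SLC41 (-0.18).

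Over 42 named genes and 16 settings, 20 values changed sign, none of them past the threshold. With limma-voom Slc30a2 stood at -0.048, Slc39a6 at -0.089 and Slc39a9 at 0.016, and with the replicate block Slc40a1 stood at -0.0033. With libraries left out the ranges were -0.46 to 1.39 for Slc30a2, -0.0016 to 0.43 for Slc30a1, -0.061 to 0.00044 for Slc30a4, -0.0012 to 0.11 for Slc30a7, -0.28 to 0.077 for Slc39a3, -0.10 to 0.18 for Slc39a6, -0.060 to 0.018 for Slc39a7, -0.059 to 0.028 for Slc39a9, -0.28 to 0.33 for Slc40a1, -0.45 to 0.047 for Slc41a3, -0.42 to 0.044 for Fth1, -0.10 to 0.039 for Pcbp1 and -0.24 to 0.060 for Pcbp2. The causes were not tested.

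Same-numbered libraries did not deviate together (correlations across genes of -0.37, -0.28 and -0.19 for numbers 1, 2 and 3). No library labelled DKO correlated best with the WT library of its own number. Deviations were taken from the mean of each group, which ties these correlations to each other. Whether a shared number marks a shared origin was not tested, and the replicate block pairs libraries by number only.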
